A study of Physcomitrium patens with 20 samples.

Results

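A group of 9 genes of the moss Physcomitrium patens had more transcript when the DNA methyltransferase CMT was lost. When CMT and DNMT3b were lost together, their means stayed under 1.5 times those of wild type or at a very low level. On gene counts these means were still above those of wild type in all 9. The genes come from 31967 gene rows counted, of which 25846 had at least 1 count. They were chosen by their measured levels. Level here is CPM, the count of a gene over the summed counts of all genes in that library, brought to a common total. Every cmt library had to reach 2 CPM and to exceed 2 times the highest wild-type library, and the mean of the double mutant had to stay under 1.5 times the wild-type mean or under 0.5 CPM. The values of wt, cmt and cmt/dnmt3b below therefore describe the choice and are not tested.

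Messenger RNA was sequenced from protonema (the young tissue of branching filaments) in 20 libraries of 7-day-old cultures (cultivar Grandsen per the labels). The groups were wild type (wt), the double mutant of DRM1 and DRM2 (drm12), cmt, dnmt3b, met/dnmt3b and cmt/dnmt3b with 3 libraries each, and met with 2. Batch 1 per the labels held replicates 1 and 2 of wt, drm12 and cmt, and every met and met/dnmt3b library. Batch 2 held replicate 3 of wt, drm12 and cmt, and every dnmt3b and cmt/dnmt3b library. The labels do not say whether replicates were separate cultures or whether a mutant was 1 line, so the spread that the p-values rest on may be technical.

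DNA methylation in plants falls on cytosines in the CG, CHG and CHH contexts, where H is any base but G, and it is best known for keeping transposable elements silent. In the moss, CG methylation depends on MET and CHG methylation on CMT. CHH methylation of heterochromatin depends mostly on DNMT3b, while DRM1 and DRM2 belong to the family that small RNAs direct to their targets in flowering plants. The sources used here pair none of the gene identifiers, the 9 among them, with a gene name or a function. Each of the 9 is therefore described by its identifier and its levels alone. The identity of the methyltransferase genes among the rows and the markers of protonema were likewise not checked here. CPM was not corrected for transcript length, so levels are compared between libraries of a gene and not between genes.

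Library totals ran from 14236575 to 21811993 counts, of which 14221016 to 21683973 were gene counts. One count was worth 0.0461 to 0.0703 CPM, and where a library shows 0 counts, counting error alone leaves room for 3 counts (0.138 to 0.211 CPM). On the scale of CPM over gene counts the median gene with a mean of at least 2 CPM was 0.24 higher in cmt/dnmt3b than in wt and 0.12 higher in cmt (log2 of CPM plus 0.5). With factors from trimmed means of M-values (TMM), which align the bulk of the genes, these medians were -0.06 and 0.01.

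The 9 genes were a small part of those raised in cmt. In all, 210 genes met the criterion for cmt, and the 9 made up 4.29% of them. In the other 201 genes the ratio of the cmt/dnmt3b mean to the cmt mean had a median of 1.11, and 113 of them were at least as high in cmt/dnmt3b as in cmt. In the 9 genes the same ratio had a median of 0.298 and ran from 0.0326 to 0.480. These medians follow from the choice, and 25 of the 201 (12.4%) also had a ratio of 0.480 or less, down to 0.125, while staying above the limits set on cmt/dnmt3b. The ratio of cmt to wt had a median log2 of 1.80 in the 9 genes and 2.35 in the 201, both of mean CPM plus 0.5.

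**Figure D1:**
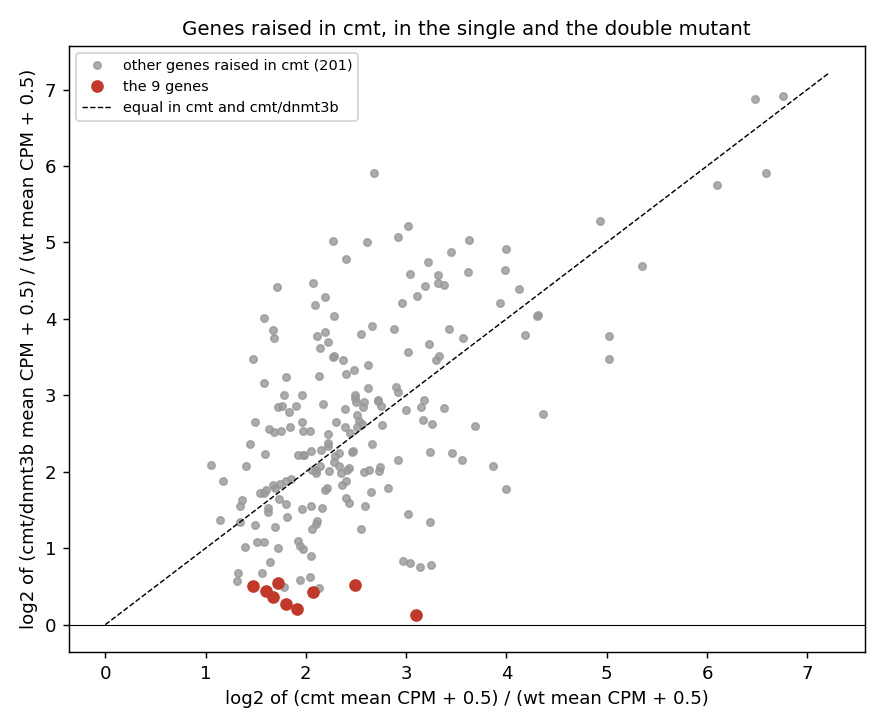
Log2 ratio to wt of the mean level in cmt (x axis) and in cmt/dnmt3b (y axis), each of mean CPM plus 0.5, for the 210 genes raised in cmt. Red points are the 9 genes, grey points the other 201, and the dashed line marks equal levels in both mutants. The 9 genes lie along the bottom edge, below the dashed line, which follows from the choice. Among them on the y axis are the grey points of Pp3c19_7045 (0.482) and Pp3c26_4660 (0.498). Of the grey points, 113 lie on or above a ratio of 1 between double and single mutant.

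Of the 9 genes, 7 were admitted by the limit of 1.5 times the wt mean and were expressed in every wt library. Pp3c12_5860, on chromosome 12, was measured with the most counts. It had 28.0, 47.2 and 26.8 CPM in wt replicates 1 to 3 and 114, 106 and 119.7 CPM in cmt. In cmt/dnmt3b it had 50.3, 50.6 and 48.3 CPM, a mean of 49.8 ± 1.25 (SD, n = 3) against 34.0 ± 11.4 in wt and 113 ± 7.00 in cmt. The cmt libraries stood 3.33 times above wt in the mean, and the double mutant 1.46 times, just inside the limit and with each of its 3 libraries above the highest wt library. In bulk tissue, fewer cells that express a gene and less RNA per cell cannot be told apart, here and in all that follows.

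Pp3c12_5860 was also above wt in the mean of every other mutant. The libraries had 53.2, 75.0 and 50.5 CPM in drm12, 73.0, 56.8 and 49.3 in dnmt3b, and 81.4, 61.7 and 56.4 in met/dnmt3b. In met, replicate 1 had 36.6 and replicate 2 had 100.5 CPM, so that the pair spanned the range from wt nearly to cmt. The order of the means was wt, cmt/dnmt3b, drm12, dnmt3b, met/dnmt3b, met and cmt. Apart from wt at the low end and cmt at the high end, neighbours in that order overlapped, and every cmt library lay above each of the 17 other libraries.

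Pp3c17_13620, on chromosome 17, had 8.47, 3.35 and 4.57 CPM in wt and 22.4, 22.5 and 20.7 in cmt, a ratio of means of 4.005. In cmt/dnmt3b it had 6.74, 6.23 and 6.11 CPM, all within the range of wt. Its mean in the double mutant was 1.16 times that of wt on gene counts, and 0.945 times with TMM factors, so the direction of that small difference rests on the scaling. In met the gene had 34.9 CPM in replicate 1 and 1.13 in replicate 2. The first of these was the highest of all 20 libraries and the second lay below every wt library. The dnmt3b libraries, at 1.14, 0.812 and 2.34 CPM, were all below the lowest wt library, while drm12 had 4.56, 2.32 and 4.49 and met/dnmt3b had 5.34, 12.8 and 3.98.

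Pp3c7_17330, on chromosome 7, had 2.26, 3.47 and 1.20 CPM in wt and 8.02, 8.84 and 16.9 in cmt. Its cmt level in batch 2 was 2.01 times that in batch 1. The other genotypes stayed in a narrow band: 2.71, 2.80 and 4.35 CPM in cmt/dnmt3b, 3.63, 3.25 and 2.87 in drm12, 2.16 and 3.06 in met, 3.88, 3.50 and 3.11 in dnmt3b, and 3.47, 2.65 and 2.83 in met/dnmt3b. The highest library outside cmt, cmt/dnmt3b replicate 3, was at 4.35 CPM, so the lowest cmt library stood 1.84 times above it.

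Pp3c19_7040, on chromosome 19, had 1.38, 0.777 and 2.53 CPM in wt, 5.55, 8.84 and 5.63 in cmt and 1.89, 1.61 and 2.47 in cmt/dnmt3b. The other libraries ran from 0.401 CPM (met/dnmt3b replicate 1) to 2.54 (dnmt3b replicate 2). The lowest cmt library was therefore 2.19 times the highest of the 17 others. Among those 17, wt and dnmt3b overlapped every other group, whereas met/dnmt3b lay wholly below cmt/dnmt3b and met. The next gene by identifier, Pp3c19_7045, moved in much the same way: 1.38, 0.598 and 2.32 CPM in wt, 8.99, 7.50 and 7.47 in cmt, and 2.71, 2.31 and 1.59 in cmt/dnmt3b. Its double-mutant mean was 1.54 times that of wt, which put it just outside the limit of 1.5. The positions of the 2 gene models were not used here, and counts of genes that overlap cannot be told apart when the counting step is not stated.

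Pp3c1_39990, on chromosome 1, had 1.32, 1.73 and 1.13 CPM in wt, 4.95, 6.06 and 4.75 in cmt and 1.58, 2.24 and 2.35 in cmt/dnmt3b. Means in the other mutants lay between 1.64 (met) and 2.09 CPM (dnmt3b), and drm12 replicate 3, at 3.13, was the highest library outside cmt. All cmt libraries were above it. The double mutant exceeded the highest wt library in 2 of 3 libraries, and its mean was 1.48 times that of wt.

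Pp3c2_6710, on chromosome 2, was the gene closest to both limits. It had 1.44, 3.65 and 2.74 CPM in wt and 8.87, 8.11 and 7.47 in cmt, so the lowest cmt library was 2.05 times the highest wt library. In cmt/dnmt3b it had 4.13, 3.85 and 3.76 CPM, each above the highest wt library, with a mean 1.4997 times that of wt. One drm12 library, replicate 3, reached 7.77 CPM, above the lowest cmt library, against 4.50 and 2.26 in the other drm12 libraries. The means in dnmt3b (4.14 ± 1.61) and met/dnmt3b (4.67 ± 0.298, SD, n = 3 each) also lay between those of wt (2.61 ± 1.11) and cmt (8.15 ± 0.699), and met was at 3.01 and 2.63 CPM.

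Pp3c13_23660, on chromosome 13, had 1.44, 1.97 and 0.633 CPM in wt and 7.42, 4.61 and 4.15 in cmt. In cmt/dnmt3b it had 1.48, 1.82 and 2.35 CPM, of which only the last was above every wt library. The drm12 libraries spread most, with 4.93, 0.386 and 3.44 CPM, and 1 of them lay within the range of cmt. In dnmt3b the level was nearly constant (1.37, 1.52 and 1.44 CPM), and met and met/dnmt3b ran from 0.649 to 2.17 CPM.

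Both remaining genes had almost no transcript outside cmt and were admitted by the limit of 0.5 CPM. Pp3c2_7150, on chromosome 2, had 0, 0 and 4 counts in the wt libraries (0.281 CPM in replicate 3) and 46, 51 and 176 counts in cmt, which was 2.77, 2.83 and 8.12 CPM. In cmt/dnmt3b it had 3, 0 and 5 counts, or 0.149 ± 0.147 CPM (SD, n = 3). Drm12 and met had 1 count each over their libraries, dnmt3b had 6 and met/dnmt3b 12. The cmt mean was 48.8 times that of wt and the lowest cmt library was 8.55 times the highest library of any other genotype. Its level in cmt was 2.89 times as high in the batch 2 library as in the batch 1 libraries.

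Pp3c2_23910, also on chromosome 2, had 2 counts over the wt libraries and 47, 37 and 59 counts in cmt (2.84, 2.06 and 2.72 CPM). The ratio of pooled CPM between cmt and wt was 59.6, with a 95% counting interval of 16.2 to 497. In cmt/dnmt3b it had 5, 4 and 5 counts, or 0.276 ± 0.0196 CPM (SD, n = 3), and the ratio to wt was 6.45 (95% counting interval 1.48 to 58.5), although the level was a small part of that in cmt. Met/dnmt3b had 3, 13 and 4 counts, dnmt3b 0, 4 and 3, met 1 and 0, and drm12 0, 0 and 9. Every library of both double mutants lay above the wt and met libraries, while drm12 and dnmt3b overlapped wt, and all 9 counts of drm12 came from its batch 2 library. Such intervals cover counting error only, as copies of 1 molecule made by amplification cannot be recognised in these counts. Those of cmt and cmt/dnmt3b against wt also come from the counts that chose the gene, so they are no test of a difference.

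**Figure D2:**
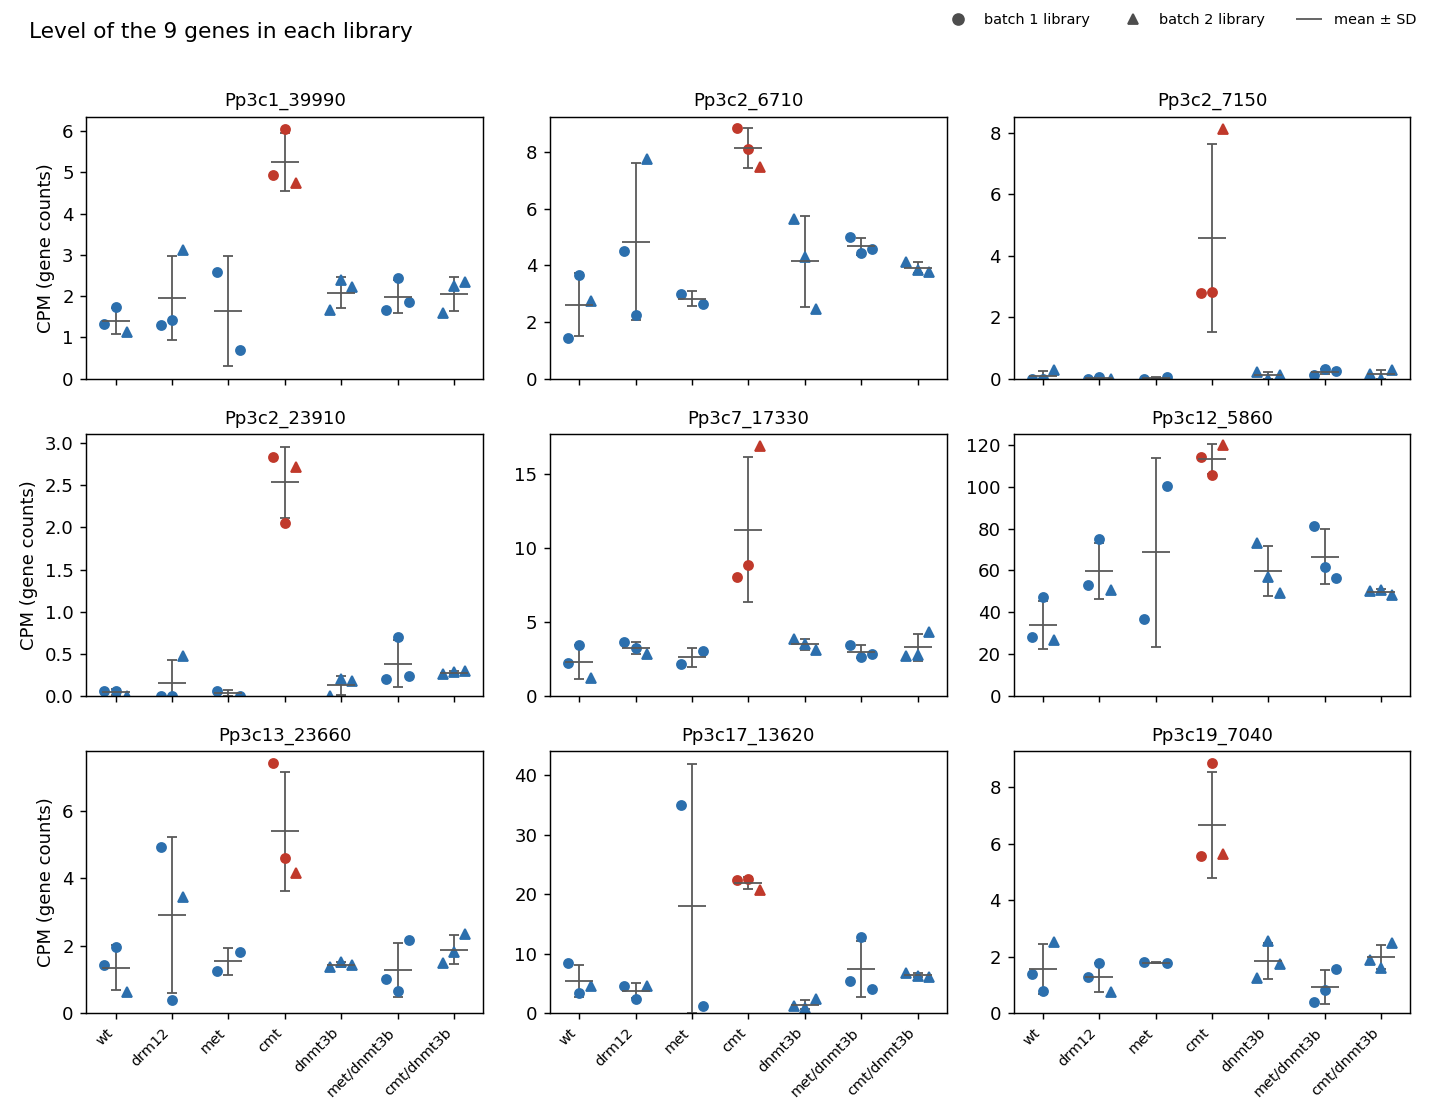
CPM over gene counts (y axis, starting at 0 with its own range for each gene) of the 9 genes in each library, by genotype (x axis). Circles are batch 1 and triangles batch 2 libraries, red marks cmt, and bars are the mean ± SD, with the lower end stopped at 0 (met is the mean of 2 libraries). The cmt libraries are the highest of all in 6 of the 9 genes, while met is split between its 2 libraries in Pp3c12_5860 and Pp3c17_13620.

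Over the 9 genes, cmt had the highest mean of the 7 genotypes in each. Every cmt library lay above all 17 other libraries in 6 of the 9 genes, against 31 of the other 201 genes raised in cmt (15.4%) and 0.402% of the genes with at least 1 count. This count rests in part on the choice, which used wt, cmt and cmt/dnmt3b. Against only the 11 libraries of drm12, met, dnmt3b and met/dnmt3b, which the choice did not use, the cmt libraries lay above all in 6 of 9 genes (66.7%) and in 131 of the 201 (65.2%), with 1.81% over all genes with a count. Both shares still rest on the choice, since all of these genes were picked for high cmt libraries. Nothing is therefore read from their distance to 1.81%. The exceptions among the 9 were Pp3c2_6710 and Pp3c13_23660, each reached by a drm12 library, and Pp3c17_13620, exceeded by met replicate 1.

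At the limits of 1.5 times the wt mean and of 2 times the highest wt library, genes lay close on both sides. The limits of 2 CPM and 0.5 CPM had wider gaps around them. Just beyond the limit of 1.5 on the double mutant were Pp3c13_18730 (1.53) and Pp3c19_7045 (1.54), and 9 of the 201 genes lay between 1.5 and 2. Just short of 2 times the highest wt library were Pp3c4_11810 (1.96) and Pp3c14_7160 (1.95), while Pp3c2_6710 (2.05) and Pp3c13_23660 (2.10) were just inside. For the limit of 2 CPM in cmt, Pp3c2_23910 (2.06) and Pp3c2_7150 (2.77) were just inside, and Pp3c16_1470 (0.922) and Pp3c14_24020 (0.905) were the nearest outside. The nearest genes outside the limit of 0.5 CPM in the double mutant were Pp3c22_15660 (0.759 CPM) and Pp3c26_4660 (0.787 CPM).

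On gene counts the 7 genes admitted by the limit of 1.5 ranged from 1.16 to 1.4997 times the wt mean in cmt/dnmt3b, and from 3.12 to 4.88 times in cmt. With TMM factors the ranges were 0.945 to 1.19 and 2.83 to 4.30. With those factors 5 of the 9 genes still met the rule, since Pp3c2_6710, Pp3c7_17330, Pp3c12_5860 and Pp3c13_23660 no longer reached 2 times the highest wt library. All the cmt/dnmt3b libraries are in batch 2, where wt has only replicate 3. Against that library alone, the cmt/dnmt3b mean was 1.83 times as high in Pp3c1_39990, 2.75 times in Pp3c7_17330, 1.86 times in Pp3c12_5860 and 2.98 times in Pp3c13_23660, all above the limit of 1.5. It was below that library in Pp3c19_7040 (0.786 times) and Pp3c2_7150 (0.530 times). Against cmt replicate 3, the cmt library of the same batch, the double mutant was lower in each of the 9 genes, at 0.0184 to 0.524 times its level. Within batch 1 the cmt mean was 2.93 to 6.67 times that of wt in the 7 genes, and within batch 2 it was 2.22 to 14.2 times.

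**Figure D3:**
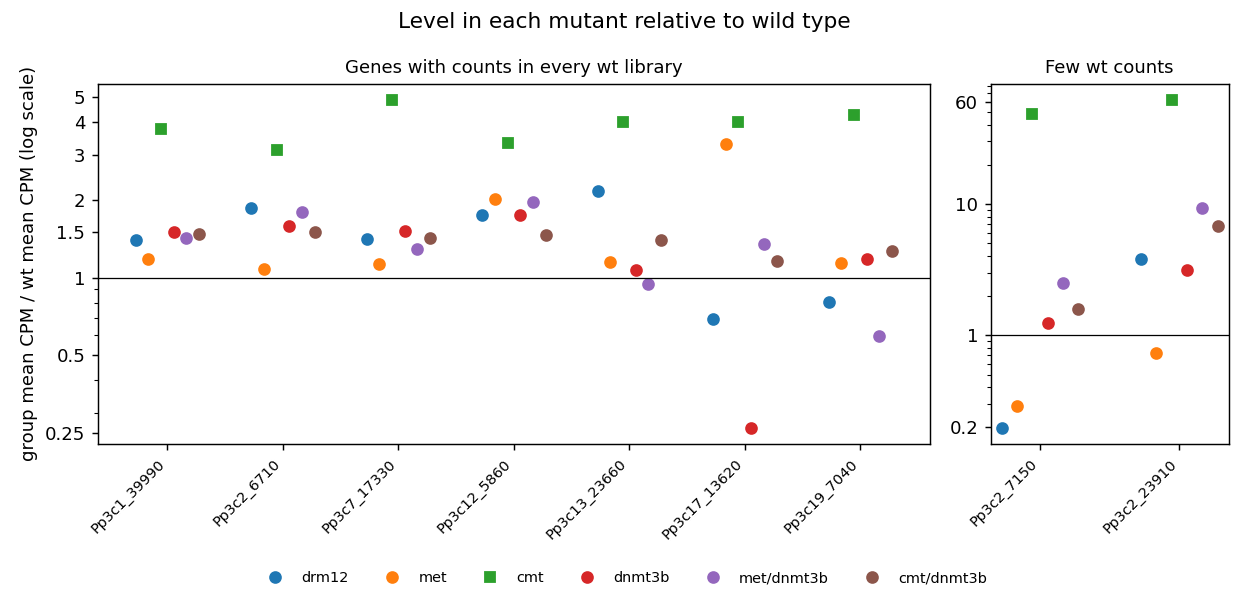
Mean CPM of each mutant group divided by the wt mean (y axis, log scale, with a separate range for the 2 genes with few wt counts on the right) for the 9 genes (x axis). Green squares are cmt, circles the other mutants, and the line marks the wt level. In the left part the squares lie between 3.12 and 4.88, with 1 circle above 3, which is met in Pp3c17_13620 at 3.29.

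Cmt replicate 3 weighed most on how many genes were found. Without it, 65 genes met the rule, the 9 among them. In the 56 added genes the level in cmt replicate 3 had a median of 0.276 times the mean of the other 2 cmt libraries, and in 35 of them it was no higher than the highest wt library. Cmt replicate 3 is the only cmt library of batch 2, which holds all cmt/dnmt3b libraries. A difference of that library and a difference between batches cannot be told apart in these genes, and neither was tested. Without cmt replicate 2, 14 genes met the rule. Without wt replicate 2, the library with the most CPM in wt in 5 of the 9 genes, 4 of the 9 remained. Requiring 3 times the highest wt library left only Pp3c2_7150 and Pp3c2_23910.

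Whether the genes also differed between genotypes that played no part in the choice was tested with edgeR's quasi-likelihood test on the counts of all genes and transposable elements, with batch as a term and Benjamini-Hochberg adjustment over all of them, at a threshold of 0.05. The mutant drm12, present in both batches, served as reference. The fit held all 20 libraries, so wt and cmt helped to set each gene's batch term. Together with cmt/dnmt3b they also helped to set its estimated spread. The tests are therefore not fully independent of the choice. All 9 genes passed the low-count filter, but Pp3c2_7150 reached the count level it asks for in the cmt libraries alone, and Pp3c2_23910 in those and 1 other. These 2 genes were thus tested through the group in which they were chosen to be high, and their tests among the other genotypes are given as values that support nothing.

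In met/dnmt3b against drm12, 1 of the 9 genes was higher and none lower, where 8.64% of the 20089 genes tested were called, 4.27% higher and 4.37% lower (1 of 9 had an unadjusted p under 0.05, against 22.3% of all genes, and DESeq2 also gave 1). The gene was Pp3c2_7150, which entered the test through its cmt libraries alone, so this call supports nothing. None of the 9 other than it was called. It had 2, 6 and 4 counts in met/dnmt3b (0.134, 0.324 and 0.241 CPM) and 0, 1 and 0 in drm12. The groups did not overlap in CPM, but both lay near the level of a few counts. The log2 fold change was 3.98 ± 1.29 (SE, edgeR adjusted p = 0.0405), and the ratio of pooled CPM was 12.8, with a 95% counting interval of 1.90 to 548.7. In a fit of only these 2 genotypes the gene did not pass the filter and was not tested. The call was lost without any single met/dnmt3b library, without drm12 replicate 1 or 3, within batch 1 (adjusted p = 0.143) and with no batch term (adjusted p = 0.143), and over the alternatives that tested the gene the adjusted p ran from 0.00553 to 0.163. Without drm12 replicate 2, Pp3c13_23660 was called lower beside it, where 1574 genes were called over all, against 1735 in the main fit. Within batch 1 and without drm12 replicate 3, Pp3c2_23910 was the gene called instead, where 981 and 1580 genes were called over all.

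The other 8 genes did not pass in that comparison. Their log2 fold changes ran from -1.40 ± 0.68 in Pp3c13_23660 to 1.74 ± 0.996 in Pp3c2_23910 (edgeR adjusted p from 0.161 to 0.912). Pp3c12_5860, which had the narrowest error, differed by 0.10 ± 0.32. The median log2 fold change was 0.11 over the 9 genes, 0.72 over the 201 others raised in cmt and -0.04 over all genes tested. Of the 201, 55 (27.4%) were higher in met/dnmt3b. The difference between the 9 and the 201 was not tested.

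In met against drm12, none of the 9 genes passed (edgeR adjusted p from 0.270 to 1), where 0.468% of genes were called, 0.134% higher and 0.334% lower. Pp3c17_13620 alone had an unadjusted p under 0.05 (12.9% of all genes did), with a log2 fold change of 2.10 ± 0.81. That value was carried by met replicate 1: without it the log2 fold change was -1.89, and without met replicate 2 it was 3.05. Each of these fits had 1 met library left. Without drm12 replicate 2, Pp3c13_23660 was called lower, where 916 genes were called over all, against 94 in the main fit. DESeq2 called none.

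In dnmt3b against drm12 none passed either (edgeR adjusted p from 0.428 to 1), where 4.28% of genes were called, 0.567% higher and 3.71% lower, and none had an unadjusted p under 0.05 (18.4% of all genes did) or was called by DESeq2. The log2 fold changes ran from -1.41 ± 0.84 in Pp3c17_13620 to 1.29 ± 1.37 in Pp3c2_7150. Within batch 2, where drm12 is 1 library, Pp3c13_23660 was at -1.29 and Pp3c17_13620 at -1.70. Without that library Pp3c13_23660 was at 0.0485 in place of -0.80.

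The step from met to met/dnmt3b adds the loss of DNMT3b to that of MET, as the step from cmt to cmt/dnmt3b adds it to that of CMT. In met/dnmt3b against met, none of the 9 genes was called by edgeR or DESeq2, where 5.87% of genes were called, 2.91% higher and 2.96% lower. An unadjusted p under 0.05 was found in 2 of the 9, Pp3c2_23910 and Pp3c2_7150, against 23.1% of all genes. They had 20 and 12 counts in met/dnmt3b and 1 count each in met (ratios of pooled CPM 14.1 and 8.45, with 95% counting intervals of 2.25 to 583.6 and 1.25 to 361). Of the 9 log2 fold changes 6 were above 0, those of Pp3c2_7150 and Pp3c2_23910 among them, whose tests support nothing. The median was 0.29 over the 9 genes, 0.67 over the 201 others raised in cmt and -0.03 over all genes tested. These medians were not compared by a test. The lowest of the 9 values was -1.20 ± 0.75 in Pp3c17_13620, whose met libraries were 34.9 and 1.13 CPM. That gene was called lower when no low-count filter was used, and stood at 2.79 without met replicate 1, with 1 met library left.

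**Figure D4:**
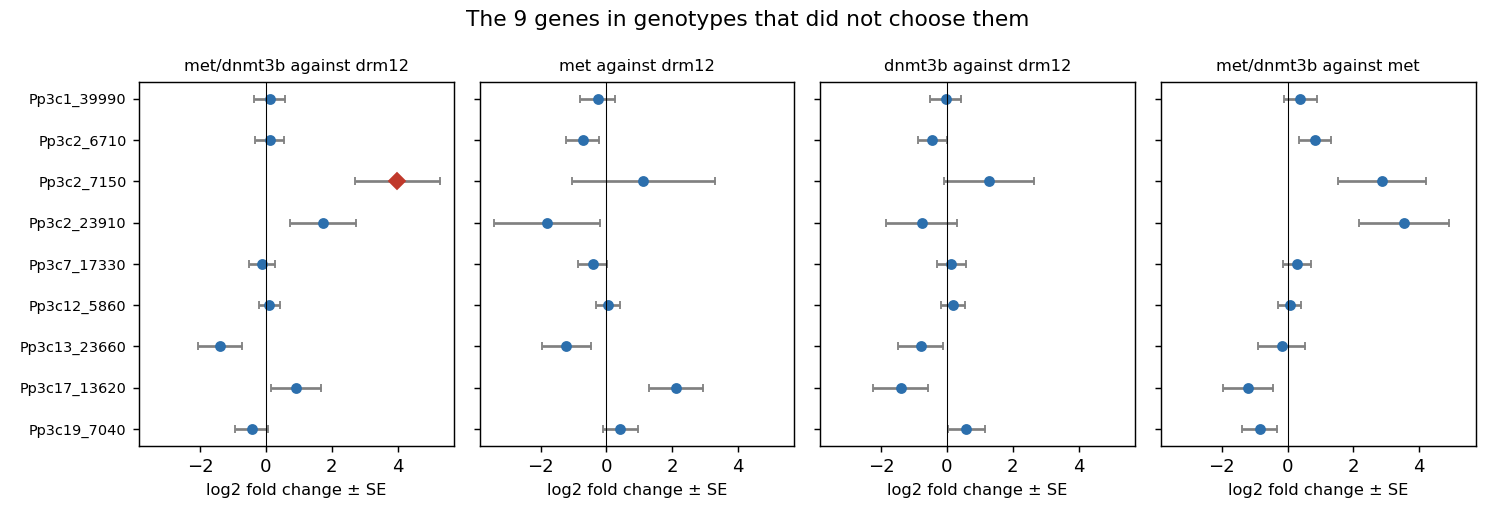
Log2 fold change with its SE (x axis) of the 9 genes (y axis) in 4 comparisons of genotypes that the choice did not use. The fit behind them also held the wt, cmt and cmt/dnmt3b libraries. The diamond is the 1 value with an edgeR adjusted p under 0.05, Pp3c2_7150 in met/dnmt3b against drm12, and circles are values that did not pass. That gene reached the count level of the filter in its cmt libraries alone, so the diamond supports nothing. The widest bars belong to Pp3c2_7150 and Pp3c2_23910, the genes with few counts outside cmt.

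The same mutants were set against wt for description only, since the wt libraries are shared by these comparisons and took part in the choice, which favours genes that are low in wt. None of the 9 genes was called by edgeR or DESeq2 in drm12, met, dnmt3b or met/dnmt3b. Over all genes, 0.0149% were called in drm12 (0.00498% higher, 0.00996% lower), 0.632% in met (0.254% higher, 0.378% lower), 1.5% in dnmt3b (0.468% higher, 1.04% lower) and 9.73% in met/dnmt3b (5.59% higher, 4.15% lower). At an unadjusted p under 0.05 there were 1, 1, 2 and 2 of the 9 genes, against 3.98%, 14.3%, 18.3% and 20.9% of all genes. Pp3c12_5860 had log2 fold changes of 0.71 ± 0.31 in drm12, 0.75 ± 0.35 in met, 0.90 ± 0.37 in dnmt3b and 0.82 ± 0.32 in met/dnmt3b. Pp3c17_13620 in dnmt3b had -1.97 ± 0.87, and Pp3c2_23910 in met/dnmt3b had 20 counts against 2 (ratio of pooled CPM 9.37, 95% counting interval 2.27 to 82.6). Without wt replicate 2, Pp3c2_6710 (1.53) and Pp3c12_5860 (1.23) were called higher in met/dnmt3b. In that fit 1744 genes were called over all, against 1955 in the main fit. In met, Pp3c17_13620 stood at 2.49 without met replicate 2 and at -2.45 without met replicate 1. Pp3c12_5860 went to -0.17 there without met replicate 2.

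The criterion that was set for cmt was also applied to the other mutants. None of the 9 genes reached 2 CPM and 2 times the highest wt library in every library of drm12, met, dnmt3b or met/dnmt3b, where 0.00774%, 0.24%, 0.464% and 1.17% of the genes with a count did. Of the 201 other genes raised in cmt, 0, 11, 16 and 33 (16.4%) did in the same 4 mutants. With met replicate 2 alone Pp3c12_5860 reached it, and with met replicate 1 alone Pp3c17_13620 did. A single library passes more easily than 2, and the 0.24% above is for both met libraries, so nothing is read from these 2 genes. In cmt against wt, the contrast that chose the genes, 7 of the 9 were called higher by edgeR. Over all genes 5.29% were called there, 3.17% higher and 2.13% lower, and nothing is read from the 7, since the same libraries chose the genes. The other 2 were Pp3c13_23660 and Pp3c17_13620, at adjusted p = 0.0883 and 0.126, and DESeq2 also called 7.

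By their identifiers the 9 genes lay on 7 chromosomes: 3 on chromosome 2 and 1 each on chromosomes 1, 7, 12, 13, 17 and 19. No 2 of them were neighbours. The 5 genes on each side of every member gave 90 neighbours in identifier order, of which 62 had a summed wt and cmt mean of at least 2 CPM. Their median log2 ratio of cmt to wt was 0.14, against 0.13 over the 17541 genes of that level. Pp3c19_7045 was the only neighbour to meet the cmt criterion (1.11% of the neighbours, against 0.657% of all genes). In cmt 5 of the 62 neighbours were above a log2 ratio of 1 (8.06%, against 4.37% of genes of that level), and in cmt/dnmt3b 9 were (14.5%, against 12.6%). Beside Pp3c12_5860, for example, Pp3c12_5820 had a mean of 2.10 CPM in wt, 5.06 in cmt and 8.55 in cmt/dnmt3b, and near Pp3c2_23910, Pp3c2_24060 had 0.247, 2.24 and 2.08 CPM. On the other side of Pp3c12_5860, Pp3c12_5950 had 3.76, 9.21 and 10.1 CPM. These 3 neighbours, named after their values were seen, had a similar or higher mean in the double mutant than in cmt. The other neighbours above a log2 ratio of 1 in cmt did not. Pp3c19_7045 is described above, and Pp3c13_23730, near Pp3c13_23660, had 34.4 CPM in wt, 79.3 in cmt and 42.7 in cmt/dnmt3b.

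**Figure D5:**
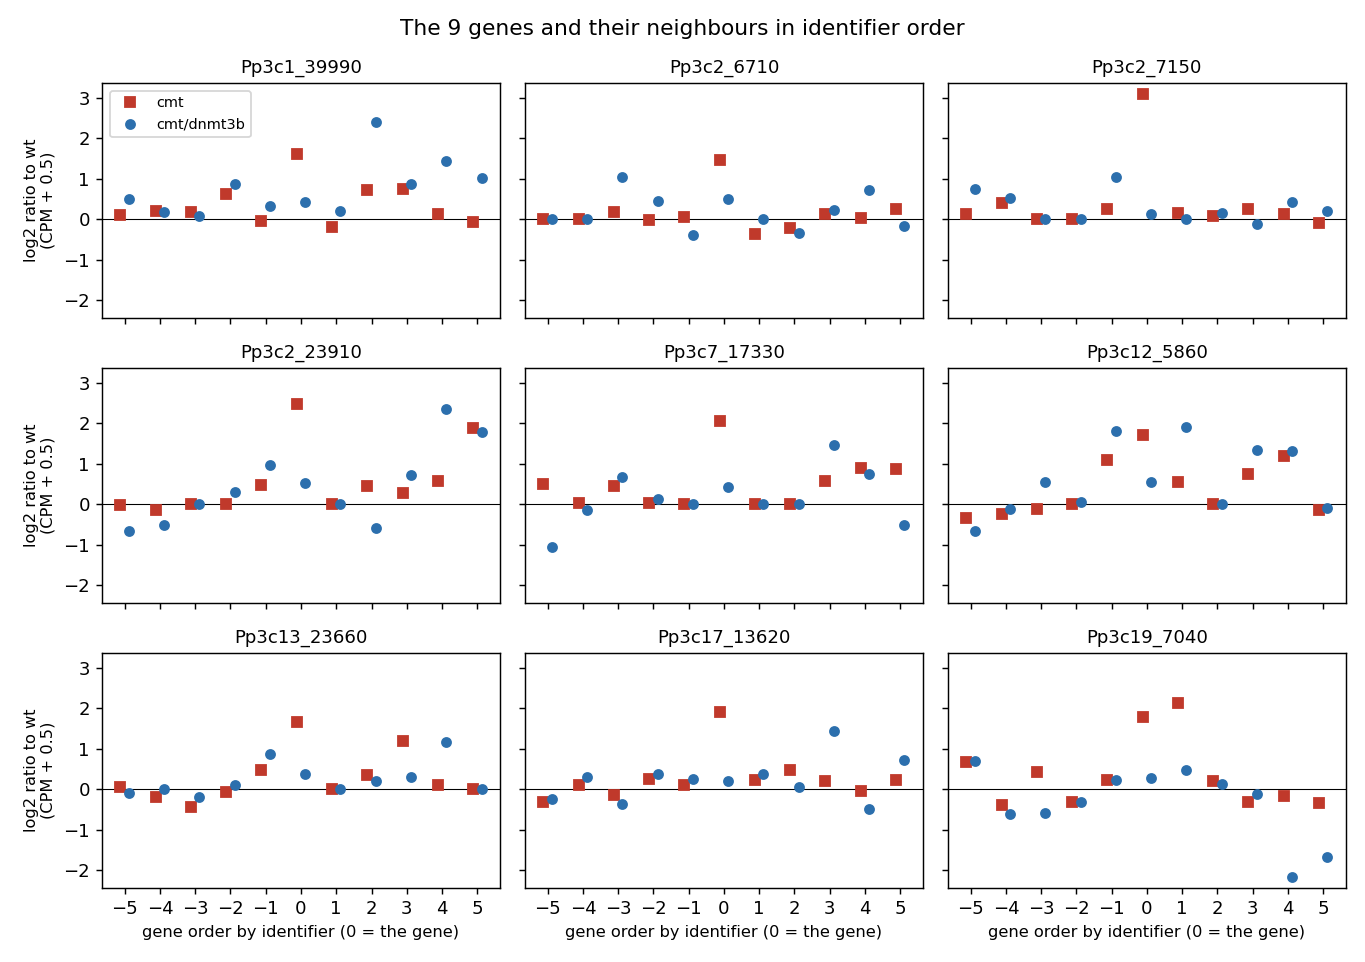
Log2 ratio to wt of the mean level in cmt (red squares) and cmt/dnmt3b (blue circles), of mean CPM plus 0.5 (y axis), for each of the 9 genes at 0 and the 5 genes on each side in identifier order (x axis). The genes themselves show a raised square over a low circle, and among the neighbours only Pp3c19_7045, at position 1 beside Pp3c19_7040, met the same criterion in cmt.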

How the data were processed

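Raw counts of 31967 genes and 241351 transposable elements in 20 libraries were taken as deposited by the authors, and the submitters' processing notes list Trim Galore 0.6.0, cutadapt 1.15 and STAR 2.7.0f with no role. How reads were counted (strand, multiple hits) and on which build and gene models was not given in the sources used here, so counts of overlapping genes and close paralogs are uncertain. Replicates differed by far more than sampling noise (chi-square per degree of freedom 7.32 to 161.1 over 19 pairs).

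The genes, comparisons and alternatives were chosen with earlier results of these data known. Levels are CPM over gene counts. Tests used edgeR 4.0.16 (R 4.3.3), fitted to genotype plus batch over the 20 libraries, on the features left by its low-count filter (minimum count 10, minimum total 15), with TMM factors from the gene rows, to match the CPM over gene counts. The SE is the log2 fold change divided by the square root of the F statistic. DESeq2 1.42.0 was an alternative, as were other factors, no filter, no batch term, single batches, the replicate number as a block, only the 2 groups compared and leaving out libraries. All 9 genes are named, as the rule for 30 or fewer asks; the genes beyond each limit were also fixed by rule. None of the 31967 gene identifiers, the 9 among them, matched the RefSeq gene table, so the lists by product and the promoter search were not run. Scripts were tested on simulated counts.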

Additional observations from a re-analysis of the deposited data

How the results depend on the processing

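The number of genes that met the rule was 2 at 3 times the highest wt library and 4 when every cmt/dnmt3b library, not the mean, had to stay under the limit. It was 8 to 65 when 1 library of wt, cmt or cmt/dnmt3b was left out, 11 on CPM over genes and transposable elements, and 8 with TMM factors. Of the 9 genes called in met/dnmt3b against drm12 there were 0 with no batch term, 0 with only those groups in the fit, 2 with no low-count filter and 0 to 2 with a library left out. Within batch 1 and without drm12 replicate 3 the count was 1, but the gene was Pp3c2_23910. With no low-count filter the count was 1 in met against drm12, 1 in dnmt3b against drm12, 2 in met/dnmt3b against met (Pp3c2_23910 higher, Pp3c17_13620 lower), 1 in met against wt, 1 in dnmt3b against wt and 2 in met/dnmt3b against wt. That setting also called more genes over all. In the comparisons just listed it called 1173, 1977, 2323, 1138, 1713 and 2774 genes, against 94, 860, 1179, 127, 302 and 1955 in the main fit. In met/dnmt3b against drm12 it called 2803, against 1735. Within batch 2, drm12 and wt are 1 library each and are assumed to vary like the other genotypes, so only log2 fold changes are given. In dnmt3b against drm12 they were -1.29 in Pp3c13_23660 and -1.70 in Pp3c17_13620, and in drm12 against wt 2.46 in Pp3c13_23660. Within batch 1 the count was 1 in met/dnmt3b against wt (Pp3c2_7150), where 2078 genes were called over all. Leaving out 1 library gave 0 to 1 in met against drm12, met/dnmt3b against met and met against wt, 0 to 2 in met/dnmt3b against wt, and 0 in the rest. The cause was not tested in any of these. For the criterion set for cmt, leaving out either met library gave 1 gene in met, with 1 library left. Among the log2 fold changes with an unadjusted p under 0.05 or called under some alternative, 5 turned sign when a library was left out. Without met replicate 1 and without met replicate 2, Pp3c17_13620 was -1.89 and 3.05 in met against drm12, 2.79 and -2.15 in met/dnmt3b against met, and -2.45 and 2.49 in met against wt. Pp3c12_5860 in met against wt was 1.29 and -0.17 without the same libraries. Pp3c13_23660 in dnmt3b against drm12 ran from -1.17 without drm12 replicate 2 to 0.0485 without drm12 replicate 3.

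Replicate numbers were not taken to pair the libraries, since in no comparison did every same-numbered pair correlate above 0.1 in its deviations from the group means (-0.568 to 0.720). In none with 3 pairs did every library correlate best with its own number. In dnmt3b against drm12 2 of 3 did (0.720 and 0.460), and in met/dnmt3b against met both of 2 did, at 0.0323 and 0.0363. Pairing is thus not excluded. With the replicate number as a block, the count in met/dnmt3b against drm12 was 0 (Pp3c2_7150 at an adjusted p of 0.0895) and the counts in the other 7 comparisons stayed at 0. Depth limits Pp3c2_7150 and Pp3c2_23910 most, which had 20 counts or fewer in any group outside cmt.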
